A study of Homo sapiens with 6 samples.

Results

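The genes described here are 9 genes of retinoid signalling in SK-Hep1 cells, an established human line labelled as hepatic adenocarcinoma, out of 20046 genes with a uniquely named probe on the array. They are PLAAT4, RARRES1 and RARRES2, known as retinoid-inducible genes, the receptor genes RARA, RARB, RARG and RXRA, the binding protein gene CRABP2 and the retinal reductase gene DHRS3. All probes carrying one of these symbols were taken, 15 in all. The symbols were chosen with the differences between these same arrays already known, so the members' differences are a description and carry no test. The knockdown group was 3 samples that had received siRNA against both YAP1 and TAZ, and the control group was 3 samples transfected with a control siRNA called siLuc in the labels, each profiled on a 1-colour Illumina bead array 3 days after transfection. The labels do not say whether replicates were separate cultures, so the p-values speak only to the scatter among these 6 arrays, part or all of which could be technical.

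Retinoic acid is made from retinol by way of retinal, and it acts through retinoic acid receptors (RARs) that pair with retinoid X receptors (RXRs) on DNA. These pairs bind direct repeats of a short half-site, among them a repeat with a spacing of 5 bases (DR5), and the gene of RAR beta itself carries such an element and is a classic retinoic acid target. Liver is the main store of vitamin A. DHRS3 turns retinal back into retinol and is itself induced by retinoic acid, which makes it part of the feedback that limits the signal.

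The promoter sequences of RARB and DHRS3 are shown because both genes differed between the groups and because the RARB window holds the retinoid element. RefSeq windows (GRCh38.p14, 250 bases before to 50 after a gene's start, 5′ to 3′ on the gene's strand) were given for 8 of the 9 members, all but PLAAT4, 16 windows in all. Both strands were searched for direct repeats of the retinoid half-site with spacings of 1, 2 or 5 bases (DR1, DR2 and DR5) and for GGAATG, the core of the site bound by TEAD factors, the DNA-binding partners of YAP and TAZ. Matches are in capitals in the sequences. The motifs found do not overlap. In the RARB window the capitals mark a DR5 on the gene's strand, at chr3:25428210-25428226, from base -53 to base -37 relative to the start. In the DHRS3 windows they mark GGAATG read on the opposite strand, where it appears as CATTCC.
RARB, chr3:25428013-25428312, plus strand: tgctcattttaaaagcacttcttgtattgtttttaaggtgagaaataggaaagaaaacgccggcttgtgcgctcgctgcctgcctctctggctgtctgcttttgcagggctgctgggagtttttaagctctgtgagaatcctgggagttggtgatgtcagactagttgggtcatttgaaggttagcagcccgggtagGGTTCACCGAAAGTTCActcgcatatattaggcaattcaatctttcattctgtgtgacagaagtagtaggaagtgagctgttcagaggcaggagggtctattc
DHRS3, chr1:12616740-12617039, minus strand: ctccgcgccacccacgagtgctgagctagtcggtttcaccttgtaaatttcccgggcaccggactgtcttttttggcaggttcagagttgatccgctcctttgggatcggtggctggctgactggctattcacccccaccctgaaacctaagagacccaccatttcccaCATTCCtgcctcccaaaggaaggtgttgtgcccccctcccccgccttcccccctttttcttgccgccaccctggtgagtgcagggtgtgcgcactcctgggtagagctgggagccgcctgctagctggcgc
DHRS3, chr1:12596564-12596863, minus strand: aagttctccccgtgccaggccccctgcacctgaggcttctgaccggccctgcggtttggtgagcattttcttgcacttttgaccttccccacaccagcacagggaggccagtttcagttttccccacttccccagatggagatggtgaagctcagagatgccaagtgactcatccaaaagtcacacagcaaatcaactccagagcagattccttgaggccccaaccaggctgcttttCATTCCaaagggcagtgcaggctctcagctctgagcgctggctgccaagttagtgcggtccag

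The DR5 was rare and the TEAD core was common. Of all 35116 promoter windows of this length, 31 (0.0883%) held a DR5, 46 (0.131%) a DR1 and 14 (0.0399%) a DR2, and RARB, in 1 of its 4 windows, was the one member with any of these 3 repeats. GGAATG was in 4928 of all windows (14%) and in 5 of the members' 16, which were 2 of the 3 DHRS3 windows, 2 of the 4 RARB windows and 1 RARA window. A match is a description of the letters and does not show that a factor binds there.

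The knockdown arrays were somewhat dimmer than the control arrays. Median intensity ran from 62.2 to 71.7 on the knockdown arrays and from 64.7 to 82.95 on the control arrays, and the upper quartile from 127.8 to 132.6 in the knockdown and from 139.8 to 171.9 in the control, without overlap. Background levels, estimated from each array's own distribution, were 56.8 to 64.8 in the knockdown and 58.96 to 75.9 in the control. Between 13620 and 16827 probes per array were detected, that is, stood above the upper 5% point of the estimated background. The number of arrays limits the precision. YAP1 mRNA fell 5.33-fold and WWTR1 mRNA, which encodes TAZ, at least 2.34-fold in the knockdown (limma adjusted p = 2.15e-08 and 6.75e-07, n = 3 each), so the targets matched the labels. Of 11 hepatocyte markers with a probe, 9 were below detection on all 6 arrays, among them APOA1, TTR and FGB, and so were 10 of 11 endothelial and 3 of 5 leukocyte markers. The summed intensity of the hepatocyte list was 1630 to 1789 in the knockdown and 1168 to 1276 in the control, with 1 gene higher and 1 lower of the 2 tested, and that of the leukocyte list was 738.6 to 815.6 in the knockdown and 583.1 to 734.4 in the control, again with 1 higher and 1 lower of 2. Of 6 mesenchymal markers tested, 5 were higher and none lower on normalised values. The summed deposited intensity of all 8 on that list was 21850 to 25130 in the knockdown and 22790 to 24130 in the control. Of 4 epithelial markers tested, 1 was higher and 1 lower, and the list summed to 4896 to 6218 in the knockdown and 5143 to 6017 in the control. The part of such shifts in the results below was not tested.

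PLAAT4, DHRS3 and RARB were higher in the knockdown on every array, RARA and RXRA overlapped between the groups, and RARRES1, RARRES2, RARG and CRABP2 were below detection on all 6 arrays. In bulk samples a change in which cells are present and a change in RNA per cell cannot be told apart. The 5 members measured by 1 probe or more on at least 3 arrays are the ones with a fitted difference. PLAAT4 entered through its 3 knockdown arrays alone, so a median over these 5 says little about all 9. Counted only as a description, 3 of the 5 lay past the threshold used for all genes (limma adjusted p of 0.05), on the higher side. Across the 9718 genes tested, 54.8% lay past it, 27.4% as higher and 27.5% as lower. Since the members were chosen on this contrast, their count is no test and nothing is read from it. The same holds for lack of overlap between the groups, whose share over all probes is not given here. The plot of deposited intensities shows all 15 probes against the detection thresholds.

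**Figure D1:**
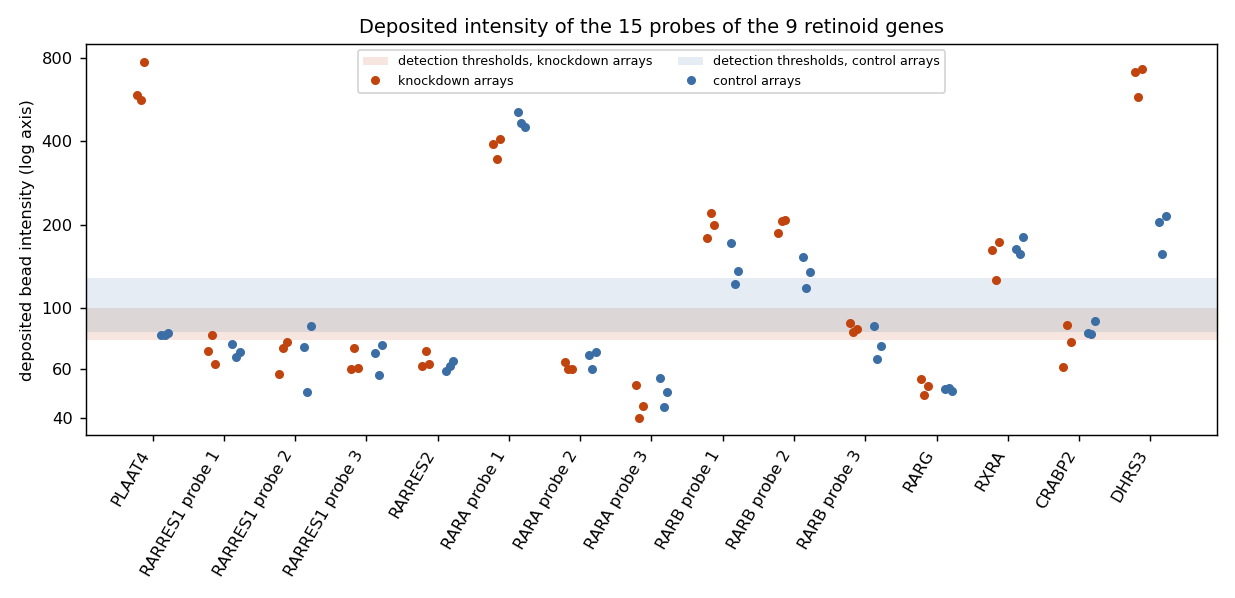
Deposited bead intensity (log axis) of each of the 15 probes on the 3 knockdown arrays (red, left) and the 3 control arrays (blue, right), with bands for the range of detection thresholds in each group. PLAAT4 lies between 563.4 and 776.1 on the knockdown arrays and near 80 on the control arrays, and RARRES1, RARRES2, RARG and CRABP2 lie at or under the thresholds of their own arrays throughout.

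Among the retinoid-inducible genes, PLAAT4, a small phospholipase and acyltransferase that restrains growth, had the largest difference. Its probe read 587.9, 563.4 and 776.1 in deposited intensity on the knockdown arrays, against 79.7, 79.7 and 81.2 on the control arrays. All 3 control readings fell short of detection. After normalisation its log2 values were 9.41, 9.43 and 9.76 in the knockdown and 5.68, 6.07 and 5.64 in the control. The groups do not overlap, and since the control level is only a bound, PLAAT4 was at least 9.17-fold higher in the knockdown with the background correction used here. The ratio of mean deposited intensities, with no background removed, was 8.01. The measured log2 means were 9.54 ± 0.198 and 5.80 ± 0.238 (SD, n = 3 each), a difference of 3.73 ± 0.141 (SE) that ranked 4 of 9718 genes. The size depends on how background is removed: the difference was 3.34 without background correction, 3.11 with a larger offset and 3.26 in the authors' processed values.

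The genes whose profile across the 6 arrays came closest to that of PLAAT4 were ABCC3, H4C8 and CYP1B1. Likeness was the root mean square difference between log2 profiles, each taken around its own mean, and it was 0.232 for ABCC3, an export pump, 0.274 for H4C8, a histone H4 gene, and 0.304 for CYP1B1, a cytochrome P450. With 2 groups and 6 arrays this mostly finds genes with a difference of similar size, and these were 4.04, 3.29 and 3.43 on the log2 scale. ABCC3, like PLAAT4, was below detection on all 3 control arrays. No tested member was lower in the knockdown, so there was no counterpart in that direction.

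RARRES1, a putative membrane protein lost in several cancers, gave no reading above background on any of its 3 probes. Their intensities ran from 57.8 to 79.8 in the knockdown and from 49.7 to 85.8 in the control. RARRES2, the gene of the adipokine chemerin, read 61.4, 69.7 and 62.6 in the knockdown and 59.2, 61.7 and 64.0 in the control. These readings lie around the background level of their arrays and bear no fold. For both genes a difference was not detectable at this signal, which does not show that there was none.

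Of the receptor genes, RARB was higher in the knockdown on both of its probes that were detected on every array. The brighter of them read 179.2, 221.1 and 199.4 in deposited intensity in the knockdown and 171.3, 122.3 and 135.5 in the control. Its normalised log2 values were 7.55, 7.90 and 7.64 in the knockdown and 6.96, 6.76 and 6.65 in the control. The lowest knockdown array thus stood above the highest control array, by less before normalisation than after it. The difference was 0.91 ± 0.123 (SE), or 1.88-fold, at rank 618 of 9718.

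The second RARB probe gave 7.62, 7.78 and 7.71 in the knockdown and 6.77, 6.70 and 6.63 in the control, a difference of 1.0 ± 0.0979 (SE) or 2.0-fold. With the background correction used here, both probes place the RARB difference close to a doubling. The size depends on that correction. The ratios of mean deposited intensities of these 2 probes were 1.4 and 1.48. In the authors' processed values their log2 differences were 0.78 and 0.86. Another RARB probe was detected on 2 knockdown arrays and on no control array. Its log2 values were 6.31, 5.95 and 6.18 in the knockdown and 5.81, 5.69 and 5.46 in the control, without overlap, and its bound gives no fold above 1. These probes target the same gene and are not independent of each other.

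RARA, the receptor gene best known from promyelocytic leukaemia, had 1 probe detected on every array and 2 detected on none. The detected probe read 391.0, 344.0 and 407.1 in deposited intensity in the knockdown and 510.3, 467.0 and 450.0 in the control. Every knockdown reading was below every control reading, with a ratio of means of 0.80. After quantile normalisation the log2 values were 8.79, 8.64 and 8.78 in the knockdown and 8.58, 8.78 and 8.53 in the control, so the groups overlapped. The difference was then 0.10 ± 0.106 (SE). With arrays scaled to a common median it was -0.07, where the median of all genes was -0.107 (0.0016 after quantile normalisation). The sign of the RARA difference thus depends on the scaling, and the knockdown arrays also had the lower upper quartiles given above.

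RXRA, the shared partner of the RARs, read 161.7, 125.6 and 172.8 in the knockdown and 163.5, 156.8 and 179.9 in the control. Its normalised log2 values were 7.39, 6.88 and 7.41 in the knockdown, and 6.89, 7.14 and 7.13 in the control. Knockdown replicate 2 and control replicate 1 were the low arrays and the groups overlapped. The difference was 0.17 ± 0.147 (SE), and 0.35 without knockdown replicate 2. RARG, the RAR gene best known from skin, read 48.2 to 55.2 in the knockdown and at most 51.1 in the control, below detection everywhere. The plot of normalised values sets the 6 measured probes side by side.

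**Figure D2:**
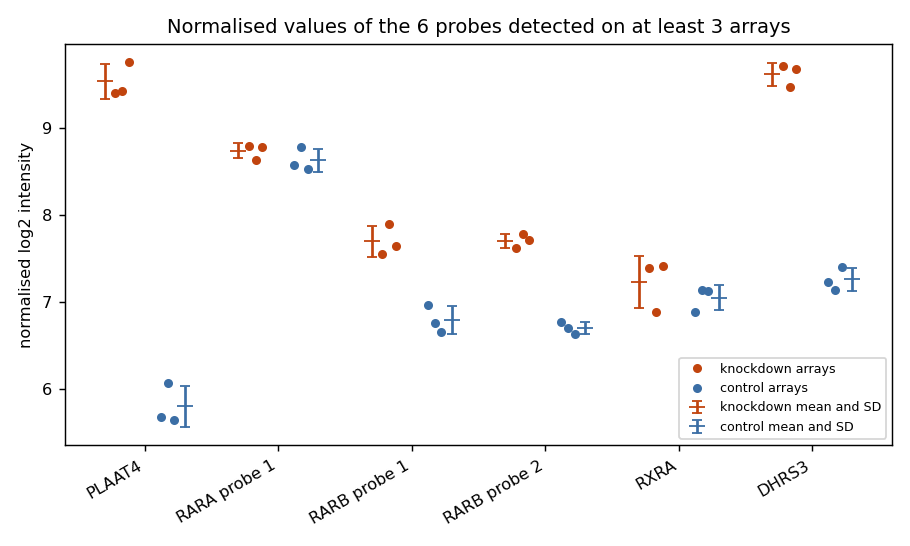
Normalised log2 intensity of the 6 member probes detected on at least 3 arrays, with 3 knockdown arrays (red, left) and 3 control arrays (blue, right) as points and the group mean with its SD as bars. PLAAT4, DHRS3 and both RARB probes have no overlap between the groups, whereas RARA and RXRA do. The share of all probes without overlap is not given here, so this is a description only.

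Of the genes that handle the ligand, DHRS3 was 5.16-fold higher in the knockdown with the background correction and normalisation used here. It read 715.2, 580.5 and 732.0 in deposited intensity in the knockdown and 205.1, 156.2 and 214.0 in the control. The log2 values after normalisation were 9.72, 9.47 and 9.68 in the knockdown and 7.23, 7.14 and 7.40 in the control. The groups do not overlap on either scale. The difference was 2.37 ± 0.112 (SE), at rank 23 of 9718 genes, and the probe was detected on all 6 arrays, so that this value is no bound. Its size depends on the processing. The ratio of mean deposited intensities was 3.53, and the log2 difference in the authors' processed values was 2.2. CRABP2, which carries retinoic acid to its receptors in the nucleus, read 61.0, 86.8 and 75.2 in the knockdown and 81.3, 80.1 and 89.6 in the control, and stayed below detection on each array. Its groups overlapped.

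The differences of the 5 measured members kept their sign under the processing settings tried, with the exception of RARA under median scaling. Over the alternatives, PLAAT4 ran from 3.11 to 3.85, DHRS3 from 2.14 to 2.47 and RARB from 0.74 to 0.99. RXRA ran from 0.08 to 0.35 and RARA from -0.07 to 0.18.

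**Figure D3:**
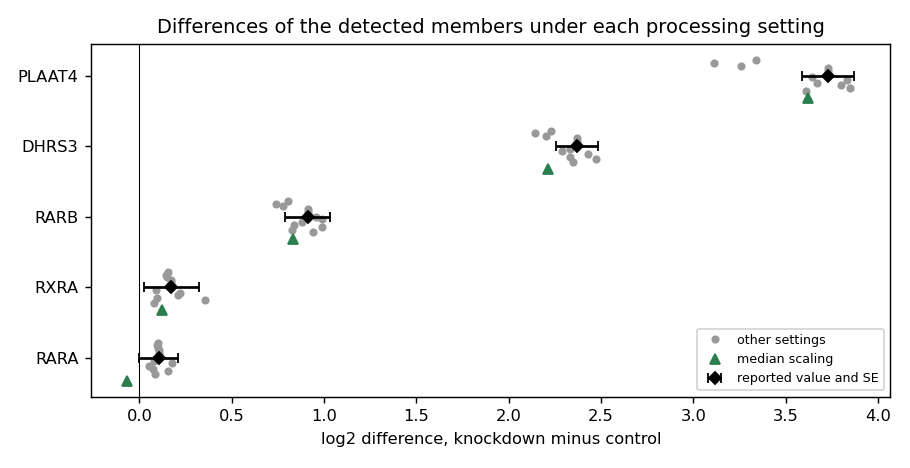
Log2 difference, knockdown minus control, of the 5 measured members: the reported value with its SE (black), arrays scaled to a common median (green) and the other settings (grey). PLAAT4, DHRS3 and RARB stay well above 0 under each setting, and RARA lies on both sides of 0.

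The rest of the retinoid pathway was followed on a list of 99 further genes, none of them a member. The list was drawn up with earlier results of these data known. Its shares and median beside those of all genes are therefore a description and no test of the pathway. Of these, 88 had a uniquely named probe and 40 were detected on at least 3 arrays, of which 18 rose, 5 fell and 17 did not pass (limma, Benjamini-Hochberg adjusted over all detected probes). The median log2 difference of the 40 was 0.24, against 0.0016 for all genes tested. Of the 40, 57.5% passed, against 54.8% of all genes, and 45% rose and 12.5% fell, against 27.4% and 27.5% of all genes. With median scaling 8 of the 40 rose (20%) and 6 fell (15%), against 1438 (14.8%) and 2475 (25.5%) of all 9718 genes. The median difference was then 0.14 for the list and -0.107 for all genes. The fitted SE of every gene was 0.192 with median scaling, against at most 0.165 (LOXL4) among the list genes that passed with quantile normalisation. Without normalisation, mean deposited intensity was lower in the knockdown for 3 of the 18 that rose, NR2C1 (ratio 0.928), HOXB5 (0.936) and NCOA1 (0.976). For MEIS1, BHLHE40, SOX9 and RXRB the ratio was 1.01, 1.04, 1.04 and 1.05. The others that rose ran from 1.08 (LXN) to 2.76 (ALDH1A3). These ratios are not adjusted for the dimmer knockdown arrays. Levels of listed genes below detection are those of the brightest probe. The plot of pathway genes shows all 40 by role.

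Synthesis of the ligand was represented by ALDH1A3, a retinaldehyde dehydrogenase that makes retinoic acid, which rose 3.93-fold. Its log2 values were 11.10, 11.07 and 11.17 in the knockdown and 9.22, 9.15 and 9.05 in the control. The groups do not overlap, and the difference was 1.97 ± 0.0973 (SE, adjusted p = 7.25e-08), and its other probe gave 1.84. DHRS4, a reductase with retinal among its substrates, rose 1.55-fold (log2 9.81 ± 0.0128 in the knockdown and 9.18 ± 0.0564 in the control, SD, n = 3 each, adjusted p = 0.000183). DHRS4 has near-identical neighbours that the probe may also read, its other probe gave 0.43 (adjusted p = 0.0515), and under median scaling it was at 0.40 (adjusted p = 0.0828). RDH10, the main retinol dehydrogenase of the embryo, had log2 values of 7.41, 7.34 and 7.25 in the knockdown and 7.56, 7.49 and 7.47 in the control and did not pass (-0.17, adjusted p = 0.158). Of the 7 synthesis genes tested, 2 rose, 1 fell and 4 did not pass, and the other 15, ALDH1A1 among them, were below detection on all 6 arrays. Of all genes tested, 27.4% rose and 27.5% fell. Under median scaling ALDH1A3 alone of the 7 rose, and 1 fell. With 7 genes tested, these are counts and no comparison.

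Genes for breakdown and uptake were mostly unmeasured. CYP26A1 and CYP26B1, the enzymes that degrade retinoic acid and that it strongly induces in many cells, were below detection on all 6 arrays, as was STRA6, the retinol uptake receptor. CYP26A1 read 56.3 to 71.7 in the knockdown and 60.2 to 67.6 in the control on its brightest probe. Of the storage and breakdown genes 1 of 8 was tested, DGAT1, and it did not pass. FABP5, which can carry retinoic acid to another nuclear receptor, fell 1.52-fold (log2 9.95 ± 0.0664 in the knockdown and 10.56 ± 0.157 in the control, SD, n = 3 each, adjusted p = 0.000706), and its other detected probe gave -0.88. It was 1 of 2 binding and uptake genes tested.

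Among receptors that pair with RXRs or share their sites, 3 of 6 tested rose and none fell, and under median scaling VDR alone rose. Of all genes 54.8% passed, 27.4% as higher and 27.5% as lower. With 6 genes tested, the 3 that rose are a count and no comparison. VDR, the vitamin D receptor, rose 2.71-fold, with log2 values of 7.53, 7.81 and 7.59 in the knockdown and 6.27, 6.16 and 6.19 in the control, where it was detected on 1 of 3 arrays (adjusted p = 1.06e-06). RXRB rose 1.43-fold, with 8.54, 8.45 and 8.70 in the knockdown and 8.32, 8.03 and 7.79 in the control (adjusted p = 0.00783), but stood at 0.37 (adjusted p = 0.115) under median scaling. The other gene that rose, NR2C1, an orphan receptor that binds direct repeats, was at 0.38 ± 0.103 (SE, adjusted p = 0.00907) on its brightest probe, while another of its probes was lower in the knockdown (-0.58 ± 0.0972 SE, adjusted p = 0.000437). Its other detected probes gave 0.26 and 0.07. Of the 4 co-regulators tested, 1 rose, NCOA1, and 3 did not pass. NCOA1 was at 0.36 ± 0.0922 (SE, adjusted p = 0.00708) on its brightest probe. Its other detected probes gave -0.14 and 0.35 and did not pass (adjusted p = 0.417 and 0.0865). Under median scaling none of the 4 rose.

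Genes known to be induced by retinoic acid in other cells moved both ways. Of 15 tested, 9 rose, 2 fell and 4 did not pass, with a median log2 difference of 0.39, and 14 more were not tested. Among all genes 27.4% rose and 27.5% fell. Under median scaling 4 of the 15 rose (GPRC5C, LOXL4, MDK and TNFAIP2) and 2 fell, and BHLHE40, HOXB5, MEIS1, RAI14 and SOX9 no longer passed. GPRC5C, an orphan receptor of a retinoic acid-inducible family, rose at least 2.31-fold with the background correction used here (adjusted p = 2.39e-07). The ratio of its mean deposited intensities, with no background removed, was 2.24. Its log2 values were 7.59, 7.40 and 7.65 in the knockdown and 5.90, 5.76 and 5.80 in the control. GPRC5C was below detection on all 3 control arrays and, like PLAAT4, met the detection filter through its knockdown arrays alone. Its place in the counts of genes that rose therefore says little about the list. GPRC5A, of the same family, fell 1.75-fold, with 7.90, 7.91 and 7.99 in the knockdown and 8.61, 8.86 and 8.74 in the control (adjusted p = 6.5e-05). These 2 relatives thus moved in opposite directions, each without overlap between the groups.

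MDK, the growth factor midkine, first found as a retinoic acid-responsive gene, rose 2.51-fold (10.28 ± 0.0278 in the knockdown and 8.96 ± 0.0729 in the control, log2 mean ± SD, n = 3 each, adjusted p = 8.01e-07). Of the 5 MDK probes, only this probe was detected on at least 3 arrays. The ratio of its mean deposited intensities was 1.76. TNFAIP2, a cytosolic protein also induced by tumour necrosis factor, rose 2.42-fold (adjusted p = 2.3e-05). LOXL4, a lysyl oxidase relative, rose 1.69-fold (adjusted p = 0.0025) and was detected on 2 of 3 control arrays. RAI14, an actin-associated protein, rose 1.52-fold (adjusted p = 0.000506), and was at 0.41 with an adjusted p of 0.0802 under median scaling. DUSP1, a phosphatase that switches off MAP kinases and an immediate early gene of many stimuli, fell 2.27-fold, with 8.02, 8.15 and 8.01 in the knockdown and 9.35, 9.17 and 9.20 in the control (adjusted p = 3.12e-06).

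TGM2, tissue transglutaminase and a textbook retinoic acid target, gave no single answer. Its brightest probe read 13.44, 13.65 and 13.56 in the knockdown and 13.51, 13.54 and 13.32 in the control, a difference of 0.10 ± 0.107 (SE, adjusted p = 0.484). A second probe was 2.56-fold lower in the knockdown (7.71 ± 0.122 against 9.07 ± 0.111, log2 mean ± SD, n = 3 each, adjusted p = 1.73e-06), and another was 1.5-fold higher with overlapping groups (adjusted p = 0.0252). The brightest probe and the other 2 carry different reference transcripts in the platform annotation.

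Of the relatives of PLAAT4, PLAAT3, a phospholipase of fat tissue, rose 1.67-fold (11.79, 11.69 and 11.81 in the knockdown and 11.13, 11.03 and 10.92 in the control, adjusted p = 1.0e-04), and PLAAT1 fell 1.71-fold (6.53, 6.62 and 6.20 in the knockdown and 7.04, 7.42 and 7.21 in the control, adjusted p = 0.000679). PLAAT2 and PLAAT5 were below detection on all 6 arrays. The family therefore did not move as one. CCRL2, a chemerin-binding receptor, rose 1.54-fold (adjusted p = 0.00231) and was detected on 2 of 3 control arrays, while the signalling receptor of chemerin, CMKLR1, was below detection on all 6. CMKLR2, another chemerin receptor, was at 0.49 ± 0.213 (SE, adjusted p = 0.0737) with overlapping groups on its brightest probe and at -0.45 ± 0.124 (SE, adjusted p = 0.0104) without overlap on its other probe.

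**Figure D4:**
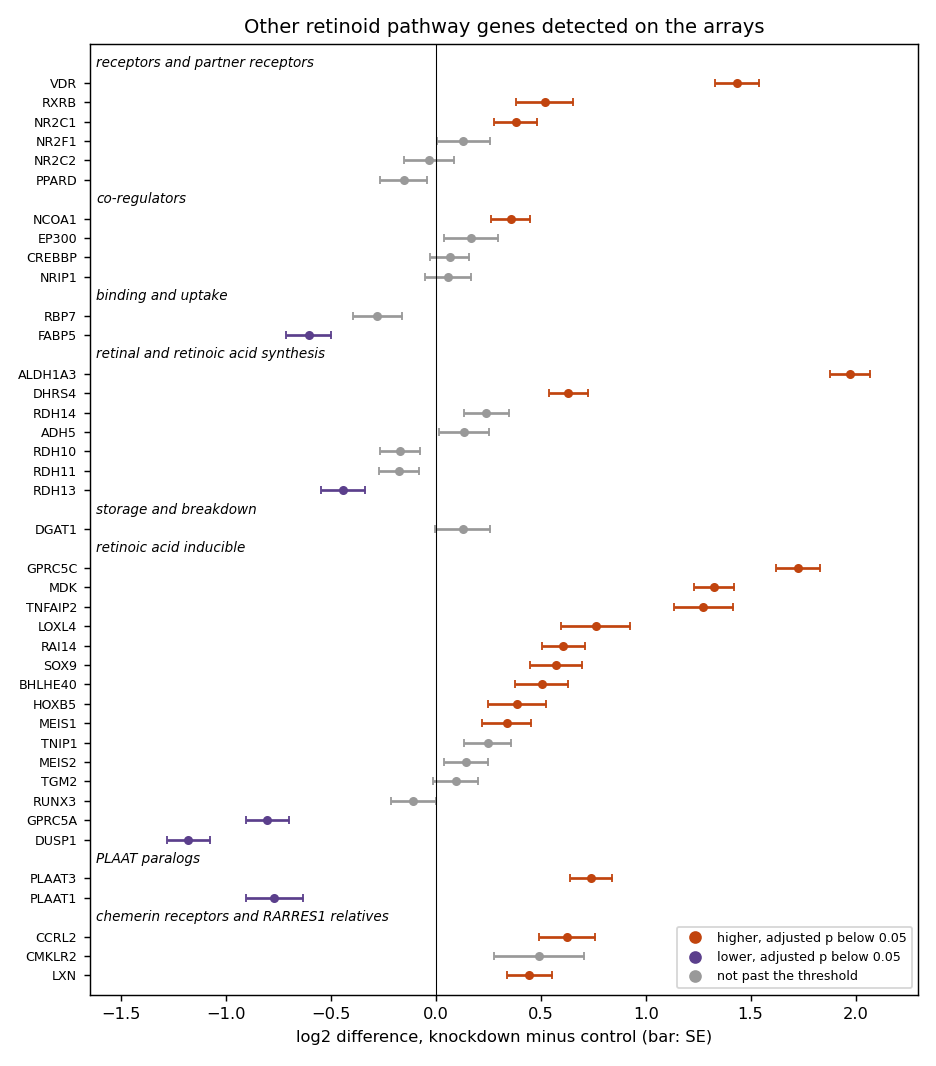
Log2 difference, knockdown minus control, with its SE for the 40 pathway genes detected on at least 3 arrays, grouped by role. Red marks the 18 that rose, purple the 5 that fell and grey the 17 that did not pass, and ALDH1A3 has the largest difference at 1.97.

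None of the other tested genes with a DR5 in a promoter window rose. The 31 windows belonged to 29 genes, of which 5 besides RARB were tested, and of these 2 fell, none rose and 3 did not pass, with a median log2 difference of -0.21. The 2 that fell, named here after their values were seen, were HROB, a gene of homologous recombination, at -1.61 ± 0.124 (SE, adjusted p = 1.49e-06), and PANK2, an enzyme of coenzyme A synthesis, at -0.37 ± 0.0925 (SE, adjusted p = 0.00618). RARB, at 0.91, was chosen with its difference known and is left out of these counts. With so few genes tested, this is a count and no comparison with other promoters.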

How the data were processed

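Total RNA of 6 samples was labelled with biotin and measured on bead arrays of 47231 probes, and the submitters' processing notes name BeadStudio. Of its version, settings and background treatment nothing is stated in the sources used here. For each probe and array the authors deposited 1 linear bead intensity and a table of processed log2 values, used as an alternative, whose median was equal on all arrays.

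Intensities were corrected with normexp (saddle-point method, offset 16), quantile normalised and log2 transformed in R 4.3.3 with limma 3.58.1; detection p-values and control probes were not used here, so the lower part of each array counted as background. A probe was detected above the upper 5% point of a background made by mirroring the array's log2 intensities below their mode (density bandwidth 0.05). The 15899 probes detected on at least 3 arrays were fitted with lmFit and eBayes on 6 arrays, knockdown minus control, without covariates, two-sided, adjusted by Benjamini-Hochberg over all of them at 0.05. A gene was read from its brightest detected probe. A fold against a group below detection on all arrays is a bound, against the higher of the probe's value and the lowest detected value on each array. Symbols came from the platform annotation, updated through Entrez identifiers (30113 probes with 1 symbol, 8 with several, 17110 unnamed here); of the 99 listed pathway genes, 11 had no uniquely named probe and were not analysed here.

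Named were the members, the siRNA targets, list genes past the threshold at 1.5-fold or more, a few set pathway genes in any case, and the 3 genes closest to the member of largest difference. BHLHE40, HOXB5, MEIS1, SOX9, NR2C1, NCOA1, LXN and CMKLR2 fall outside this rule and were named after their values were seen. Members and lists were chosen with earlier results of these data known. The fitting code was also run on simulated arrays in which a small share of probes, all of them bright, changed evenly in both directions. That run does not cover dim probes or data in which as many genes differ as here.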

Additional observations from a re-analysis of the deposited data

How the results depend on the processing

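The counts of pathway genes, the siRNA targets and the named genes were recomputed under 14 alternatives: no background correction, an offset of 50, median scaling, the authors' processed values, no detection filter, detection on all 6 arrays, a replicate block, the mean of a gene's probes, and each array left out in turn. The number of pathway genes that rose was 8 under median scaling in place of 18 and lay between 13 and 19 otherwise. The number that fell lay between 4 and 6. These counts have unlike bases. Without a detection filter 14 of 88 tested rose, and with detection on all 6 arrays 13 of 32 did. In the other settings 40 were tested. Of 261 values for 19 named genes and targets, 257 kept their direction and side of the threshold. TGM2, which did not pass in any setting, changed sign to -0.225 with the mean of its probes. The other 3, DHRS4, RAI14 and RXRB under median scaling (0.40, 0.41 and 0.37), kept their direction without passing, where the SE was 0.192 for each. Most of the 19 were named because they passed at 1.5-fold or more, so much of the agreement of the 257 values was set by that choice. BHLHE40, HOXB5, MEIS1, SOX9, NR2C1, NCOA1 and LXN lie outside this tally. They rose in the main setting and no longer counted as risen under median scaling. RARA changed sign, to -0.07, under median scaling. Replicate numbers are shared across the groups, but deviations from the group means of same-numbered arrays correlated at -0.18, -0.13 and -0.01, so the numbers were not treated as pairs. With a replicate block, 18 pathway genes rose and 5 fell, as without it, and YAP1 remained at -2.42. PLAAT4, GPRC5C, VDR, LOXL4, CCRL2 and WWTR1 were not detected on all 6 arrays and have no value under that filter. Dim signal limits what can be said of RARRES1, RARRES2, RARG and CRABP2. No group was large enough to look for single outlying arrays.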
